A study of Bombyx mori with 12 samples.

Results

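Tetramolters of batch 1 were compared with trimolters of batch 2, 3 libraries each, so 6 of the 12 libraries of a silkworm (Bombyx mori) study of molting number. All libraries came from the strain labelled Gurangri 3, spelled Guangri 3 in the series text. The series title calls its larvae dominantly trimolters, which molt 3 times before spinning, and larvae with an extra molt are called tetramolters. Head and thorax were pooled as cephalothorax during the molt of the third instar, and poly(A) RNA was sequenced. Both groups carried the same genotype and tissue labels and differed in 2 of them, the molting type and the batch. The study text describes a spring rearing and a warmer autumn rearing, both from single female moths, but no label ties a batch to a season. The 2 groups were paired because both had been found low in cuticle protein counts, which asks what still differs between larvae with a like cuticle state. Molting type and batch change together between them and cannot be told apart by this comparison alone.

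At a molt, ecdysteroids from the prothoracic glands act through the receptor pair EcR and USP and a cascade of transcription factors. Juvenile hormone from the corpora allata decides whether the next stage is larval, and both glands lie in the cephalothorax. Epidermal cells digest the old cuticle and lay down a new one from chitin and cuticle proteins in a timed order, so cuticle transcripts change quickly within a molt. Cytosolic ribosomal proteins build the machinery of protein synthesis and are produced in step with growth.

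Totals ran from 14897583 to 15650612 counts in the batch 1 tetramolters and from 14992695 to 15443608 in the batch 2 trimolters. Replicates were close, with Pearson correlations of log2 CPM (counts scaled by library size) of 0.9902 to 0.9911 among the tetramolters and 0.9779 to 0.9808 among the trimolters. No label names the animal behind a library, so p-values measure the spread between these libraries, which may be partly technical. In such bulk tissue, fewer cells of a type and less RNA per cell cannot be told apart. After 511 rows of loci added to the annotation were dropped, 10721 genes were tested, and CPM values are scaled with TMM factors. Log2 fold changes are batch 1 tetramolters over batch 2 trimolters, with their standard error (SE), and a gene was called at an adjusted p under 0.05 in edgeR's quasi-likelihood test.

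The 2 groups differed widely. Of the 10721 genes, 2940 were called (27.4%), 1622 of them higher in the batch 1 tetramolters (15.1%) and 1318 lower (12.3%). A change of at least 1 log2 unit was also met by 876 genes (8.17%), 516 higher and 360 lower. Library ranges did not overlap for 6189 genes (57.7%). The median log2 fold change over all tested genes was 0.0009. The number of calls fell when any 1 library of the pair was left out. It was 1616, 1860 and 1862 without tetramolter library 1, 2 or 3, and 2217, 1796 and 1895 without trimolter library 1, 2 or 3. A fit to the 6 libraries alone called 4997.

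The other 2 groups of the study were set beside the pair. By arithmetic of the 4 group means, a gene's log2 fold change is the sum of a molting type part (tetramolters over trimolters, mean of both batches) and a batch part (batch 1 over batch 2, mean of both molting types). The molting type part was called for 1679 genes (15.7%) and the batch part for 3987 (37.2%). Each part averages 2 effects, which can differ in size or sign, and whether they differed was not tested. A called part therefore does not mean that both effects went its way. For 1243 of the 1622 higher genes (76.6%), both other groups lay on the batch 2 trimolters' side of the midpoint of the pair. The same held for 955 of the 1318 lower genes (72.5%) and, as background, for 6164 of all tested genes (57.5%). Of the higher genes, 170 (10.5%) placed batch 1 trimolters beside the tetramolters of their batch, and 112 (6.91%) placed batch 2 tetramolters beside those of their molting type. Both were below the shares among all tested genes, 14.2% and 11.2%. These shares are a description, with no test. The placement gives a side and not a distance, so it does not show that the batch 1 tetramolters stood alone. CPR104 was placed with them apart, though the pair had means of 0.910 and 15.2 CPM. Its means were 201 CPM in batch 1 trimolters and 264 CPM in batch 2 tetramolters.

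The pairing by cuticle state was only partly borne out. The 205 cuticle protein genes held 5.267%, 5.0% and 5.013% of all counts in the batch 1 tetramolters, against 7.22%, 7.86% and 6.90% in the batch 2 trimolters. The tetramolter libraries were therefore all below the trimolter libraries. Among the groups left out of the pair, batch 2 tetramolters had 11.6% to 13.0% and batch 1 trimolters 7.55% to 14.6%, so the lowest batch 1 trimolter library lay within the range of the batch 2 trimolters.

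**Figure D1:**
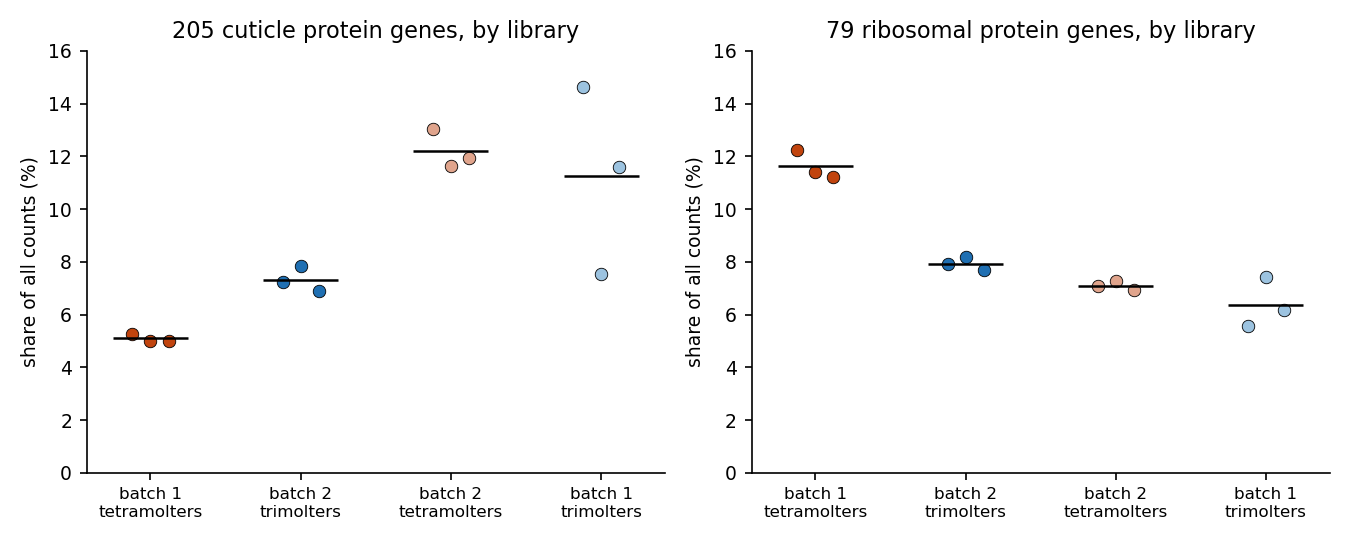
Share of all counts (percent, vertical axis) taken by 205 cuticle protein genes and 79 cytosolic ribosomal protein genes in each of the 12 libraries. Points are libraries and bars are group means. Batch 1 tetramolters were lowest for cuticle (5.0% to 5.267%) and highest for ribosomal genes (11.2% to 12.2%).

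Of 159 cuticle protein genes tested, 60 were called (37.7%, against 27.4% of all tested genes). Of these, 12 were higher in the batch 1 tetramolters and 48 were lower. The median log2 fold change of the tested genes was -0.83. A further 99 were not called, and the 95% interval of the log2 fold change lay within -1 and 1 for 21 genes. The CPR family, which carries the Rebers and Riddiford chitin-binding motif, had 26 lower and 6 higher of 97. The CPH genes, named as hypothetical cuticle proteins, had 12 lower and 1 higher of 32, with a median of -1.11. The glycine-rich CPG genes were split, with 6 lower and 5 higher of 24. In the 2 small families, CPFL and CPT (Tweedle), 2 of 3 tested genes each were lower and none was higher. Since the groups were chosen for their cuticle counts, these numbers describe the pair and are not independent evidence of a direction. Near-identical copies are common in these families, and no source says how reads that match several genes were counted.

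Many of the largest falls named by rule were of cuticle genes. CPR104 (gene 692394) had 0.273, 0.999 and 1.46 CPM in the batch 1 tetramolters, against 12.2, 15.3 and 18.0 CPM in the batch 2 trimolters. Both groups were far below the batch 1 trimolters, at a mean of 201 CPM, and the batch 2 tetramolters, at 264 CPM. Its log2 fold change was -4.05 ± 0.54 (SE, edgeR adjusted p = 0.000506), made up of -1.83 for molting type and -2.22 for batch. Each part is a mean of effects of opposite sign. Tetramolters were below trimolters in batch 1 and above them in batch 2, and batch 1 was below batch 2 only among tetramolters. Since the pair was chosen for low cuticle protein counts, its low level against the other groups is not independent evidence, and neither are these parts.

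CPH13 (gene 100379483) had 14.5, 15.4 and 17.3 CPM in the batch 1 tetramolters and 195, 196 and 177 CPM in the batch 2 trimolters. The log2 fold change was -3.59 ± 0.59 (SE, edgeR adjusted p = 0.00261). Here the trimolters were not low: their level lay between the batch 2 tetramolters, with a mean of 88.15 CPM, and the batch 1 trimolters, with 286 CPM. The batch 1 trimolter libraries spread widely, at 497, 42.9 and 318 CPM. CPH16 was alike, with 72.0, 73.99 and 73.8 CPM in the batch 1 tetramolters and 744, 829.6 and 628 CPM in the batch 2 trimolters. Its batch 1 trimolter libraries also spread widely, at 2576, 169 and 1872 CPM. For both genes the molting type part (-2.64 and -2.39) passed the test in edgeR and the batch part (-0.95 and -0.93) did not.

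CPR12, CPR105, CPR86 and CPG20 were other cuticle genes with large falls, with log2 fold changes of -3.54, -3.49, -3.14 and -2.87. In all 4, both groups of the pair had lower mean CPM than both other groups, and the batch part, -1.96 to -2.48, was called. Since the pair was chosen for low cuticle protein counts, lying below the other groups is not independent evidence. The same limit holds for the batch part, which is built from the same group means. CPR86 and CPG20 were not called by limma-voom.

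A smaller set of cuticle genes was higher. CPG15 (gene 100379508) had 28.0, 28.1 and 25.7 CPM in the batch 1 tetramolters, against 5.87, 1.85 and 3.65 CPM in the batch 2 trimolters, a log2 fold change of 2.84 ± 0.46 (SE, edgeR adjusted p = 0.00187). Almost all of it was in the molting type part, 2.91, a mean of 2 unlike batches. Batch 2 tetramolters averaged 142 CPM. Batch 1 trimolters had 9.28, 13.4 and 31.3 CPM, which overlapped the batch 1 tetramolters. CPR127 had 608.5, 599.6 and 600.4 CPM in the batch 1 tetramolters and 332.5, 304 and 306 CPM in the batch 2 trimolters, and its mean of 591 CPM in batch 2 tetramolters was close to that of batch 1 tetramolters. CPG19 and CPG16 were also higher. CPG19 had 572, 486 and 432 CPM in the batch 1 tetramolters and 159, 120.3 and 99.9 CPM in the batch 2 trimolters, a log2 fold change of 1.97 ± 0.33 (SE, edgeR adjusted p = 0.00226), and CPG16 was higher by 1.08. CPH27 was the 1 higher gene of its family, named after its value was seen. It had 2299, 2078 and 1873 CPM in the batch 1 tetramolters and 684, 690.5 and 545 CPM in the batch 2 trimolters, but its call (edgeR adjusted p = 0.028) was lost without any 1 library of the pair. CPR46 went the other way, with 1208, 1152 and 1113 CPM in the batch 1 tetramolters and 3253, 2786 and 2691 CPM in the batch 2 trimolters.

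Genes that cut chitin and colour the cuticle were mixed. Of 7 chitin metabolism genes, 1 was higher and 2 were lower (42.9% called, against 27.4% of all tested genes). GlcNAcase2, of the enzyme family that trims chitin fragments, had 43.1, 45.95 and 46.35 CPM in the batch 1 tetramolters, against 18.1, 7.68 and 13.4 CPM in the batch 2 trimolters (log2 fold change 1.79 ± 0.24 SE, edgeR adjusted p = 0.000689). Treh-2, a trehalase that feeds glucose into chitin synthesis, had 33.4, 39.95 and 35.85 CPM in the batch 1 tetramolters and 72.3, 70.3 and 72.05 CPM in the batch 2 trimolters, with a log2 fold change of -0.97 ± 0.20 (SE, edgeR adjusted p = 0.00605). Neither gene's groups overlapped. FDL, another hexosaminidase, fell by 0.73 on the log2 scale with an edgeR adjusted p of 0.0462, a call lost without any tetramolter library or without trimolter library 2 or 3.

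Of 18 melanin and tanning genes, 1 was higher and 3 were lower (22.2% called, against 27.4% of all tested genes). Y-f2, of the yellow family, had 20.1, 16.8 and 17.7 CPM in the batch 1 tetramolters and 5.47, 4.57 and 5.94 CPM in the batch 2 trimolters, while yellow-f fell by 0.80 on the log2 scale. Ebony, which joins dopamine to beta-alanine for light tanning, had 8.73, 5.71 and 7.43 CPM in the batch 1 tetramolters. In the batch 2 trimolters it had 10.9, 51.5 and 57.5 CPM, so library 1 stood well below the other two. Its call (log2 fold change -2.45, edgeR adjusted p = 0.013) was lost without tetramolter library 2 and in limma-voom, with adjusted p up to 0.0537 among fits that left out 1 library.

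**Figure D2:**
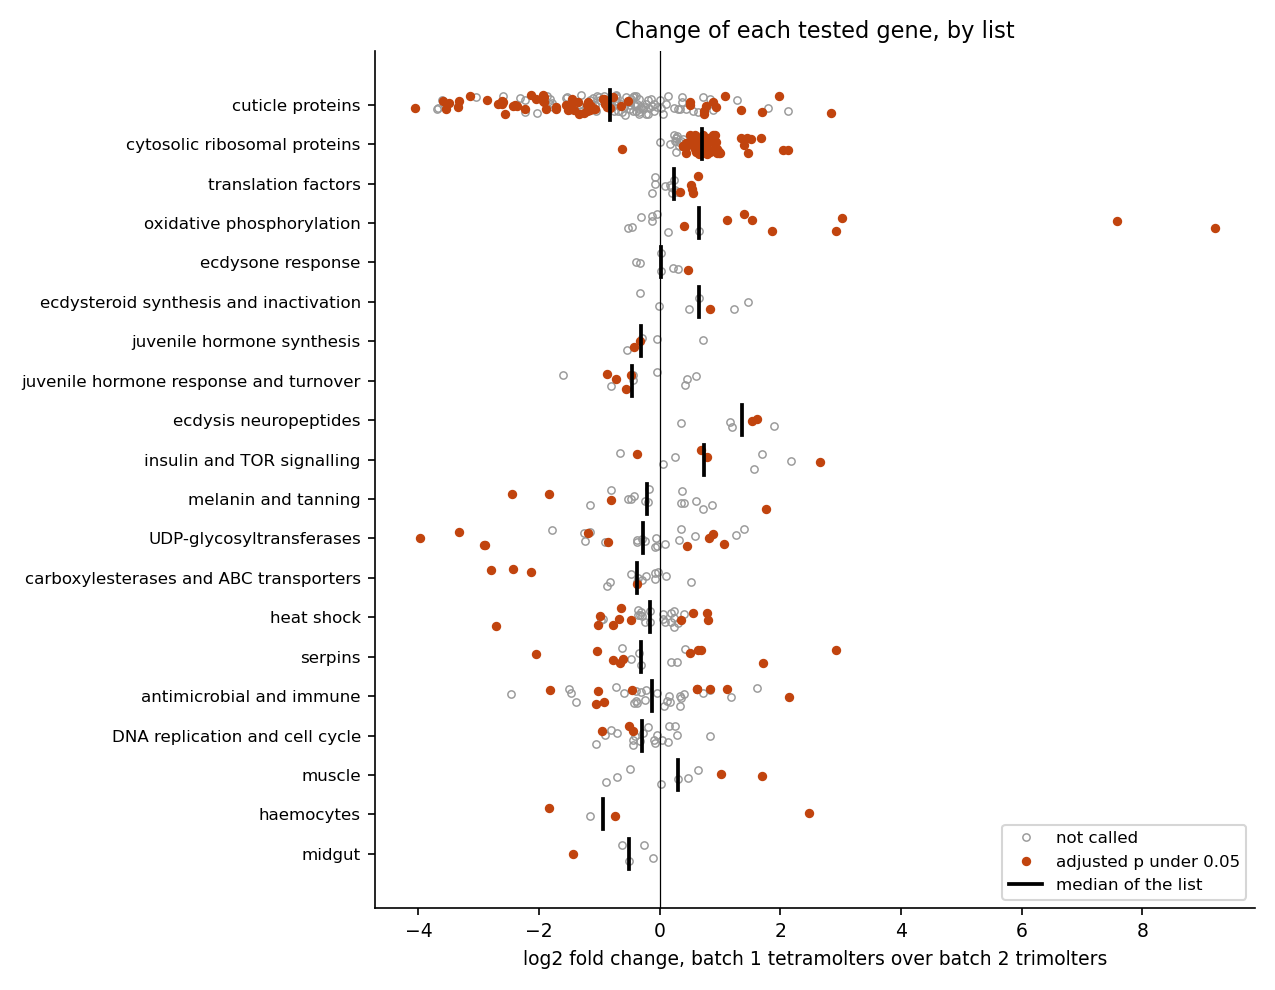
Log2 fold change (horizontal axis, batch 1 tetramolters over batch 2 trimolters) of every tested gene in 20 gene lists. Filled points passed an adjusted p under 0.05, open points did not, and bars are list medians. Cuticle genes spread mostly to the left (median -0.83) and ribosomal genes cluster to the right (median 0.70).

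Cytosolic ribosomal protein genes were mostly higher. Of 79 genes, all tested, 66 were higher in the batch 1 tetramolters, 1 was lower and 12 were not called. The called share was 84.8%, against 27.4% of all tested genes, and the median log2 fold change was 0.70. The list took 12.2%, 11.4% and 11.2% of all counts in the batch 1 tetramolters, against 7.93%, 8.17% and 7.67% in the batch 2 trimolters. Batch 2 tetramolters, with 6.93% to 7.26%, and batch 1 trimolters, with 5.55% to 7.41%, were lower than both. The molting type part was called upward for 59 genes and the batch part for 48. Both parts are means of unlike effects. In share of counts, tetramolters lay above trimolters in batch 1 and below them in batch 2. Likewise, batch 1 lay above batch 2 among tetramolters and below it among trimolters. Across all alternatives, 51 to 76 genes were higher.

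RpS29 (gene 692725), a small ribosomal subunit protein, had 419.8, 454 and 354 CPM in the batch 1 tetramolters, against 109.5, 101.5 and 85.8 CPM in the batch 2 trimolters. Its log2 fold change was 2.05 ± 0.14 (SE, edgeR adjusted p = 4.09e-05). RpL39 (gene 692711), of the large subunit, had 171, 190.1 and 143 CPM in the batch 1 tetramolters and 42.8, 39.7 and 32.3 CPM in the batch 2 trimolters, a log2 fold change of 2.13 ± 0.18 (SE, edgeR adjusted p = 8.94e-05). The groups did not overlap in either gene, and means in the other 2 groups were at or below the batch 2 trimolters (80.6 CPM in batch 2 tetramolters and 79.6 CPM in batch 1 trimolters for RpS29). RpL29 and RpL36A followed, at 1.44 and 1.46. RpL7Ae, the 1 gene lower in the list, fell by 0.62 (edgeR adjusted p = 0.0462). It was named after its value was seen, and its call was lost without any 1 library of the pair.

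Among the genes not called, RpL4, of the large subunit, had 3982, 4034 and 3935 CPM in the batch 1 tetramolters and 3235, 3419 and 3282 CPM in the batch 2 trimolters, without overlap but not called (0.27, edgeR adjusted p = 0.166), and it too was named after its value was seen.

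The size of the ribosomal change went with transcript length. The 39 genes shorter than the list's median length were all higher, with a median log2 fold change of 0.84, while 27 of the other 40 were higher, with a median of 0.57. Across the 79 genes the Spearman correlation of log2 fold change with length was -0.74, against -0.09 across 10356 other genes, given as a description since genes are not independent replicates. Other genes under 1000 bases had a median of 0.10, and 20.9% of them were higher. When a trend with length was removed from each library, 51 ribosomal genes stayed higher and the median was 0.43. The part of fragment length or RNA quality in this relation was not tested.

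**Figure D3:**
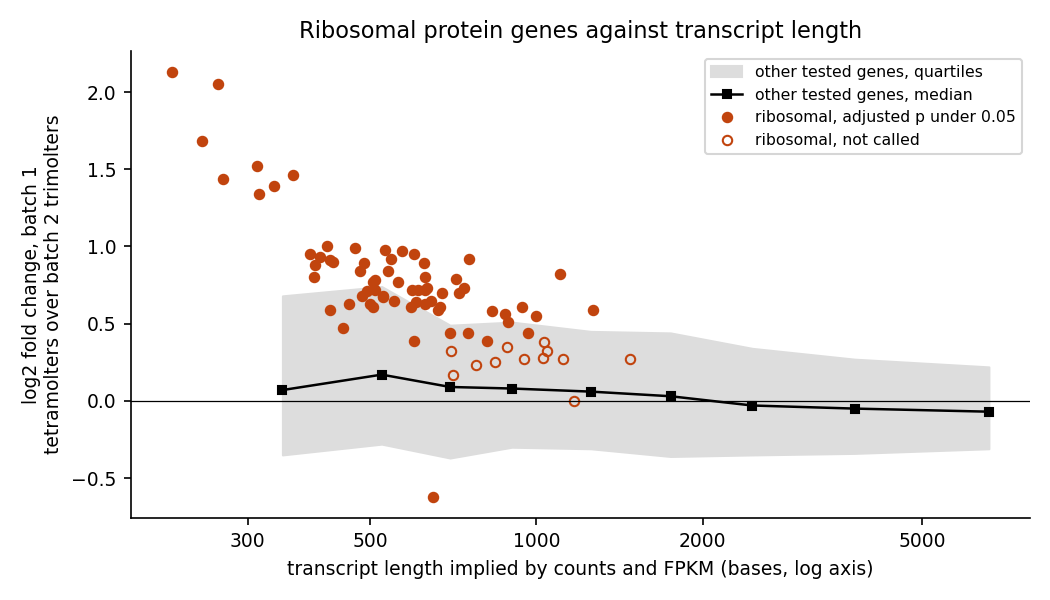
Log2 fold change (batch 1 tetramolters over batch 2 trimolters) of 79 ribosomal protein genes against transcript length in bases, implied by counts and FPKM (log axis). The black line and grey band are the median and quartiles of other tested genes by length. RpL39 and RpS29, among the shortest, rise above 2, while other genes under 400 bases and from 400 to 600 bases have medians of 0.07 and 0.17.

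Of 15 translation factor genes tested, 5 were higher and none was lower (33.3% called, against 27.4% of all tested genes). A further 10 were not called, and the median was 0.23. eIF3g, a subunit of an initiation factor, had 420.2, 407 and 385 CPM in the batch 1 tetramolters and 255, 259.5 and 262.5 CPM in the batch 2 trimolters (log2 fold change 0.64 ± 0.11 SE, edgeR adjusted p = 0.00229). eIF3h, Ef1beta and Ef-1d were higher by 0.52, 0.56 and 0.53. The call for Ef-1d was lost without tetramolter library 1 or 2 or trimolter library 1 or 3, and that for Ef1beta when the length trend was removed. Of 22 DNA replication and cell cycle genes tested, none was called higher and 3 were lower (13.6%). RnrS, the small subunit of ribonucleotide reductase, had 11.5, 13.0 and 13.6 CPM in the batch 1 tetramolters, against 24.1, 26.8 and 23.2 CPM in the batch 2 trimolters (log2 fold change -0.96 ± 0.19 SE, edgeR adjusted p = 0.0048). Cyca and Mcm7 fell by 0.51 and 0.45; the call for Cyca was lost without tetramolter library 2, and that for Mcm7 in several fits, leaving out tetramolter library 2 or 3 among them.

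Genes of the mitochondrial genome gave the largest rises of all named genes. Of 11 tested, 8 were higher in the batch 1 tetramolters and none was lower, with a median log2 fold change of 1.53. The higher share was 72.7%, against 15.1% of all tested genes. ND2 (gene 809265), a subunit of respiratory complex I, had 40.3, 58.9 and 72.1 CPM in the batch 1 tetramolters. In the batch 2 trimolters it had 0.198, 0 and 0.0675 CPM, 4 counts in all. The ratio of summed counts was 610 (exact 95% interval 238 to 2241, counting error only; edgeR adjusted p = 2.08e-06). ND4L had 617 counts in the tetramolters and 3 in the trimolters, a ratio of 205 (exact 95% interval 69.7 to 995).

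ND1 (gene 809263) had 53.7, 50.7 and 56.4 CPM in the batch 1 tetramolters and 10.02, 6.69 and 4.39 CPM in the batch 2 trimolters, a log2 fold change of 2.93 ± 0.31 (SE, edgeR adjusted p = 0.000273). ND5 was higher by 3.03, ND3 by 1.86, ATP6 by 1.53, ND4 by 1.39 and COX3 by 1.12. COX1 and COX2, the core subunits of cytochrome oxidase, were not called. COX2 had 2216, 1997 and 2009 CPM in the batch 1 tetramolters and 2239, 2279 and 1901 CPM in the batch 2 trimolters, and its 95% interval lay within -1 and 1, as did that of COX1. CYTB was not called in this fit (0.66, edgeR adjusted p = 0.116).

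These rises followed batch. Mean ND2 was 104 CPM in batch 1 trimolters and 0.170 CPM in batch 2 tetramolters, and its batch part of 9.20 equalled the whole log2 fold change, with a molting type part of -0.00. For ND1 and ND5 the molting type part was negative (-0.89 and -1.01), and batch 1 trimolters were higher than batch 1 tetramolters. The 8 genes were higher in all fits that left out 1 library. Of 6 nuclear genes of the same respiratory complexes, 1 was higher (Ndufa13, 0.40, a call lost without any 1 library of the pair), the median was -0.13, and 5 had a 95% interval within -1 and 1. No source says whether counting used strand, so neighbouring mitochondrial transcripts on opposite strands may share reads.

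**Figure D4:**
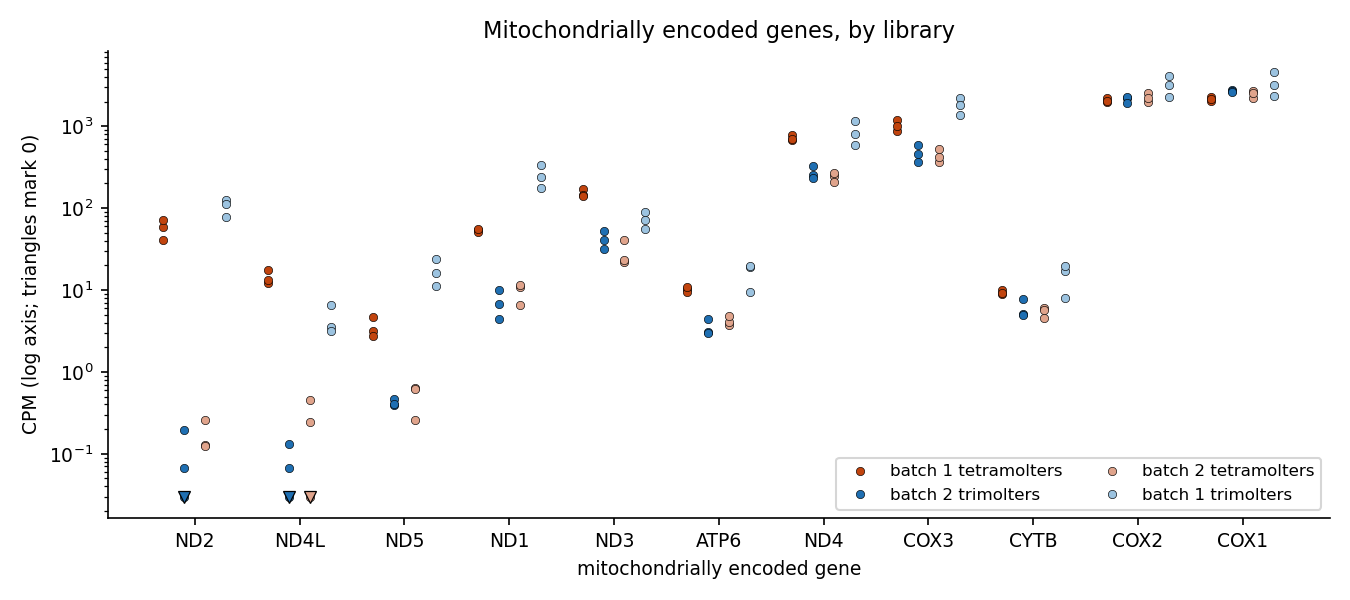
CPM (log axis) of 11 mitochondrially encoded genes in each of the 12 libraries, ordered by log2 fold change, with triangles for values of 0. ND2 and ND4L are near 0 in all batch 2 libraries, of both molting types, while COX1 and COX2 have the highest levels in all 4 groups.

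Of 7 ecdysteroid synthesis and inactivation genes tested, 1 was called (14.3%, against 27.4% of all tested genes). The median log2 fold change was 0.65, and the 95% interval lay within -1 and 1 for 2 of the 7, so the intervals of the others reach past it. Cyp306a1 (phantom), a P450 of ecdysone synthesis, had 66.8, 61.9 and 64.5 CPM in the batch 1 tetramolters, against 38.9, 36.3 and 32.7 CPM in the batch 2 trimolters. The log2 fold change was 0.84 ± 0.15 (SE, edgeR adjusted p = 0.00266), and both parts were called, at 0.41 for molting type and 0.43 for batch. Batch 1 trimolters (17.2 CPM) and batch 2 tetramolters (17.0 CPM) were below both. Each part is therefore a mean of effects of opposite sign. Tetramolters were above trimolters in batch 1 and below them in batch 2, and batch 1 was above batch 2 only among tetramolters.

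Nvd, the oxygenase that opens the pathway, had 0.478, 0.713 and 0.695 CPM in the batch 1 tetramolters and 0.264, 0.199 and 0.203 CPM in the batch 2 trimolters. The groups did not overlap, but with 27 counts in the tetramolters and 10 in the trimolters the difference was not called (log2 fold change 1.47 ± 0.60 SE, edgeR adjusted p = 0.0744). It was called in the fits without batch 2 tetramolter library 1 or 2. Cyp307a1 (spook) had 5 counts in the batch 1 tetramolters and 2 in the batch 2 trimolters, a ratio of 2.49 (exact 95% interval 0.407 to 26.1), so no difference was detectable at this depth. In batch 2 tetramolters it averaged 11.6 CPM. Cyp302a1, Cyp315a1 and Cyp314a1, the later steps, and Cyp18a1, which inactivates the hormone, were not called (0.48, -0.01, 0.65 and -0.32), and their libraries overlapped.

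Among 7 ecdysone response genes, USP, the partner of the ecdysone receptor, was the 1 called (14.3%, against 27.4% of all tested genes). It had 168, 168 and 169 CPM in the batch 1 tetramolters and 126, 117 and 122 CPM in the batch 2 trimolters (log2 fold change 0.47 ± 0.11 SE, edgeR adjusted p = 0.00998). The call was lost without trimolter library 2 (adjusted p = 0.0599), and the difference lay in the batch part, 0.54. EcR (0.22), E74 (0.03), E75 (0.31), Br-c (-0.40), Ftz-f1 (-0.32) and Hr3 (0.02) were not called. For all 7 the 95% interval lay within -1 and 1, so larger differences lay outside it. The fit to 6 libraries called E75, Br-c and Ftz-f1 (edgeR adjusted p = 0.00302, 0.0148 and 0.0132), and DESeq2 called E75, so these calls depended on the fit. E75 had 131.7, 127.1 and 126.9 CPM in the batch 1 tetramolters and 105.1, 101.1 and 105.3 CPM in the batch 2 trimolters. Ftz-f1, a factor of molt timing, had 19.5, 21.3 and 22.2 CPM in the batch 1 tetramolters and 25.7, 25.4 and 27.55 CPM in the batch 2 trimolters. Neither gene's libraries overlapped.

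Of 12 juvenile hormone response and turnover genes, 4 were lower and none was higher, with a median log2 fold change of -0.46. Across all alternatives, 2 to 7 were lower and 0 to 3 higher. The called share was 33.3%, against 27.4% of all tested genes. Jheh2 (gene 692686), an epoxide hydrolase that breaks the hormone down, had 64.4, 75.8 and 67.4 CPM in the batch 1 tetramolters, against 101, 131 and 109 CPM in the batch 2 trimolters. The log2 fold change was -0.72 ± 0.15 (SE, edgeR adjusted p = 0.0066), mostly in the molting type part, -0.56. That part is a mean of 2 unlike batches. Batch 1 trimolters averaged 146 CPM, while batch 2 tetramolters, at 111 CPM, were close to the batch 2 trimolters, at 114 CPM. The related genes Jheh-lp3 and Jheh-lp4 fell by 0.55 and 0.87. The call for Jheh-lp4 (edgeR adjusted p = 0.0476) was lost without any 1 library of the pair. The esterase jhe1 (0.42) and the kinase Jhdk (-0.44), the other breakdown steps, were not called.

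MET1, a receptor of the hormone, had 10.6, 11.5 and 13.1 CPM in the batch 1 tetramolters and 17.5, 17.2 and 14.05 CPM in the batch 2 trimolters. Its log2 fold change of -0.47 ± 0.13 (SE, edgeR adjusted p = 0.0207) lost its call without tetramolter library 1 or 2 or trimolter library 1 or 2. Kr-h1, the target gene that carries the larval signal, went the other way in level, with 68.8, 70.4 and 71.8 CPM in the batch 1 tetramolters and 56.4, 48.1 and 50.3 CPM in the batch 2 trimolters. The groups did not overlap, but the call was missed (0.45 ± 0.16 SE, edgeR adjusted p = 0.0525), and 11 alternatives made it, among them DESeq2, both FPKM fits, upper quartile factors, the replicate block and the fit to 6 libraries (edgeR adjusted p = 0.000987). BmMET2, the second receptor gene, had 0.819, 1.36 and 1.46 CPM in the batch 1 tetramolters and 4.615, 4.24 and 2.16 CPM in the batch 2 trimolters (-1.60 ± 0.57 SE, edgeR adjusted p = 0.0566). Here 7 alternatives made the call, among them DESeq2, limma-voom and the fit to 6 libraries (edgeR adjusted p = 0.0047).

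On the synthesis side, 2 of 6 tested genes were lower (33.3% called, against 27.4% of all tested genes). They were Ippi, by 0.32, and Fpps3, by 0.43 on the log2 scale, both of the isoprenoid steps. Their calls (edgeR adjusted p = 0.0431 and 0.0466) were lost without most single libraries of the pair. Hmg-r, the rate-setting enzyme of the mevalonate pathway, was at 20.5, 17.6 and 20.7 CPM in the batch 1 tetramolters and 20.9, 18.9 and 21.2 CPM in the batch 2 trimolters. Jhamt, the methyltransferase specific to the hormone, had too few counts for the test, 13 in the tetramolters and 10 in the trimolters. The Hox gene Scr had 7.23, 7.49 and 6.32 CPM in the batch 1 tetramolters and 6.26, 5.03 and 5.40 CPM in the batch 2 trimolters, and was not called (0.33, edgeR adjusted p = 0.142).

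The called peptide hormone genes, all of low level, were higher. ETH, the ecdysis triggering hormone, had 4.43, 2.93 and 2.85 CPM in the batch 1 tetramolters, against 1.19, 0.993 and 1.35 CPM in the batch 2 trimolters. Its log2 fold change of 1.53 ± 0.35 (SE, edgeR adjusted p = 0.00825) lay in the molting type part, 1.58. Batch 1 trimolters averaged 0.552 CPM and batch 2 tetramolters 1.72 CPM. The bursicon subunit gene pburs, which acts in cuticle hardening, was higher by 1.62, and its call was lost without tetramolter library 2 or trimolter library 2 or 3. Those were the 2 called of 6 ecdysis peptide genes tested (33.3%, against 27.4% of all tested genes). AKH1, an adipokinetic hormone that mobilizes stored fuel, had 4.03, 4.14 and 2.85 CPM in the batch 1 tetramolters and 0.791, 0.0662 and 0.878 CPM in the batch 2 trimolters. Its log2 fold change was 2.65 ± 0.77 (SE, edgeR adjusted p = 0.0243). InR, the insulin receptor, had 238.6, 245 and 239.6 CPM in the batch 1 tetramolters and 165, 131 and 154 CPM in the batch 2 trimolters. Its log2 fold change of 0.69 (edgeR adjusted p = 0.032) lay in the batch part, 0.99. Batch 1 trimolters averaged 106.5 CPM and batch 2 tetramolters 43.2 CPM. InR lost its call without any 1 library of the pair, and AKH1 without 5 of those 6, trimolter library 3 being the exception. Both stood on a list of 10 tested insulin, TOR and adipokinetic genes, of which 3 were higher and 1 was lower (40.0% called). The others called were Rheb (0.78), which activates TOR, and Pi3k60 (-0.37), and both calls were lost without any 1 library of the pair.

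**Figure D5:**
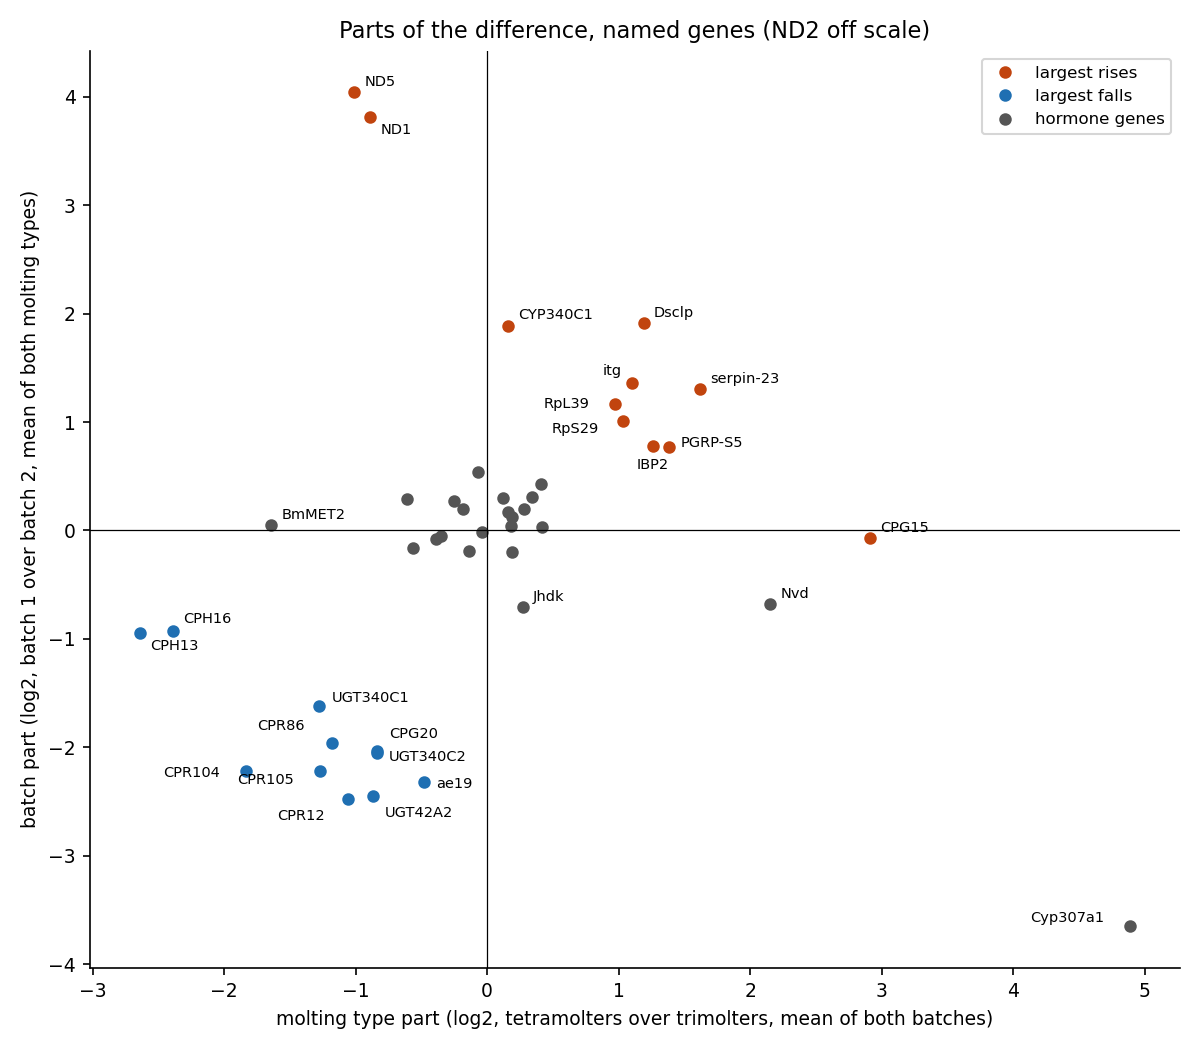
Molting type part (horizontal axis, log2) against batch part (vertical axis, log2) of genes named for large rises and falls (ND2 is off scale), and of 22 hormone genes. The sum of both parts is the log2 fold change of batch 1 tetramolters over batch 2 trimolters. Each part is a mean of 2 effects, which can differ in sign. Of 11 large falls shown, 9 lie below -1.5 in the batch part, CPG15 lies on the molting type axis at 2.91, and hormone genes other than Cyp307a1, Nvd and BmMET2 lie within 1 log2 unit of 0 on both axes.

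Of 28 UDP-glycosyltransferase genes, which attach sugars to small molecules in detoxification, 6 were lower and 4 higher (35.7% called, against 27.4% of all tested genes). UGT42A2 (gene 100862818) had 1.30, 2.14 and 1.32 CPM in the batch 1 tetramolters, against 16.55, 21.1 and 9.99 CPM in the batch 2 trimolters. Its log2 fold change was -3.32 ± 0.30 (SE, edgeR adjusted p = 8.94e-05), with a batch part of -2.45. UGT33D7 (-3.98), UGT340C1 (-2.91) and UGT340C2 (-2.89) had the same direction. UGT33D7 followed batch, with a mean of 0.0672 CPM in batch 1 trimolters and 5.36 CPM in batch 2 tetramolters.

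Of 16 carboxylesterase and ABC transporter genes, 4 were lower, all of them esterases, a called share of 25.0% that is near that of all tested genes. Gene ae19 had 1.30, 2.57 and 1.67 CPM in the batch 1 tetramolters and 7.45, 15.3 and 15.9 CPM in the batch 2 trimolters (log2 fold change -2.80 ± 0.62 SE, edgeR adjusted p = 0.00767). Gene ae3 had 11.5, 13.98 and 14.04 CPM in the batch 1 tetramolters and 46.4, 85.1 and 82.1 CPM in the batch 2 trimolters, and its call was lost without any tetramolter library or trimolter library 2. Both esterases had a molting type part that was not called, and batch parts of -2.32 and -2.41. Cytochrome P450 and glutathione transferase genes were split, with 2 higher and 2 lower of 17 (23.5% called), and 4 higher and 3 lower of 19 (36.8% called). CYP340C1 (gene 101742493), outside that P450 list, had 81.5, 85.4 and 83.7 CPM in the batch 1 tetramolters and 25.6, 14.3 and 20.8 CPM in the batch 2 trimolters, with a batch part of 1.89. Cyp6ab5 had 9.96, 9.35 and 10.8 CPM in the batch 1 tetramolters and 34.4, 33.6 and 37.1 CPM in the batch 2 trimolters (log2 fold change -1.80 ± 0.22 SE, edgeR adjusted p = 0.00048). Among glutathione transferases, GSTo2 had 131, 125.6 and 124 CPM in the batch 1 tetramolters and 77.3, 70.8 and 76.2 CPM in the batch 2 trimolters (log2 fold change 0.77 ± 0.10 SE, edgeR adjusted p = 0.000567). GSTz1 and GSTo3 fell by 0.59 and 0.51.

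Of 31 heat shock genes, 7 were lower and 4 higher (35.5% called, against 27.4% of all tested genes). Hsp23.7, a small chaperone chosen after its value was seen, had 1.91, 2.00 and 1.32 CPM in the batch 1 tetramolters and 11.6, 11.85 and 10.9 CPM in the batch 2 trimolters. Batch 2 tetramolters averaged 101 CPM and batch 1 trimolters 19.4 CPM, and the batch part was -2.54. The call (edgeR adjusted p = 0.0128) was not made by limma-voom. Hsp90 had 120.8, 111 and 118.5 CPM in the batch 1 tetramolters and 196, 269 and 250.5 CPM in the batch 2 trimolters, a log2 fold change of -1.03 (edgeR adjusted p = 0.0186). The call was lost without any tetramolter library or trimolter library 2, and batch 2 tetramolters averaged 1220.1 CPM. HSP70 was not called (-0.94, edgeR adjusted p = 0.0628), though its libraries did not overlap. Both were chosen after their values were seen. DnaJ-15 and DnaJ-10, co-chaperones, and HSFd, a heat shock factor gene, were higher by 0.78, 0.80 and 0.56.

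Of 36 immune recognition, signalling and antimicrobial genes, 5 were higher and 5 lower, a called share of 27.8% that is near the 27.4% of all tested genes. BGRP2, a beta-glucan recognition protein, had 93.7, 105 and 106 CPM in the batch 1 tetramolters and 54.0, 33.9 and 51.9 CPM in the batch 2 trimolters (log2 fold change 1.12 ± 0.18 SE, edgeR adjusted p = 0.00143). CTL5, a C-type lectin, had 36.6, 32.5 and 32.45 CPM in the batch 1 tetramolters and 71.1, 60.7 and 60.8 CPM in the batch 2 trimolters (log2 fold change -0.92 ± 0.11 SE, edgeR adjusted p = 0.000441). The transcription factor genes Rel and Dorsal fell by 1.02 and 0.46, and the call for Rel was lost without any tetramolter library or trimolter library 2 or 3. The antimicrobial peptide genes Attacin1 and CecA overlapped between the groups and were not called, at means under 3 CPM. In turn, of 17 serpins, inhibitors of serine proteases, 5 were higher and 5 lower (58.8% called). Serpin-23 (gene 100272188) had 41.9, 41.7 and 42.7 CPM in the batch 1 tetramolters, against 5.41, 4.97 and 6.21 CPM in the batch 2 trimolters. The log2 fold change was 2.93 ± 0.19 (SE, edgeR adjusted p = 3.88e-05). Its molting type and batch parts were 1.62 and 1.30. PGRP-S5, a peptidoglycan recognition protein, had 45.4, 41.0 and 41.9 CPM in the batch 1 tetramolters and 9.56, 9.01 and 10.3 CPM in the batch 2 trimolters. Serpin-9 had 74.7, 78.6 and 74.7 CPM in the batch 1 tetramolters and 262, 377 and 304 CPM in the batch 2 trimolters, and its fall lay in the molting type part, -2.08. The remaining large rises were Dsclp (gene 100270779), with 391, 359 and 356 CPM in the batch 1 tetramolters and 53.8, 28.3 and 46.9 CPM in the batch 2 trimolters, itg (2.47) and IBP2 (2.05).

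Tissue markers were called in shares of 14.3% (nervous system), 20.0% (midgut) and 22.2% (muscle), and for 3 of 4 haemocyte genes, against 27.4% of all tested genes. In the other short lists, 1 of 2 silk gland markers tested was higher, 1 of 2 tracheal markers was lower and 1 of 4 fat body and storage markers was lower. The 4 haemocyte markers, PPO1, PPO2, NimB and itg, summed to 1931 to 2048 CPM in the batch 1 tetramolters and 4348 to 5047 CPM in the batch 2 trimolters, with 2 lower (PPO1 by 1.83 and NimB by 0.74) and 1 higher (itg). Calls for PPO1 were lost without tetramolter library 1 or 2, and for NimB without tetramolter library 1 or trimolter library 2. The 6 midgut markers summed to 1820 to 2124 CPM in the batch 1 tetramolters and 3271 to 3730 CPM in the batch 2 trimolters, with 1 of 5 tested lower. That gene was Apn1, an aminopeptidase (-1.43, edgeR adjusted p = 0.0178), and its call was lost without tetramolter library 1 or 2.

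Muscle was the tissue with the highest marker sums. Its 9 markers summed to 61297 to 62128 CPM in the batch 1 tetramolters and 45542 to 56686 CPM in the batch 2 trimolters. Projectin, a giant sarcomere protein, had 69.45, 76.0 and 68.4 CPM in the batch 1 tetramolters and 23.2, 21.8 and 21.4 CPM in the batch 2 trimolters, and TpnI (troponin I) was higher by 1.01, a call lost without tetramolter library 1 or trimolter library 2 or 3. These 2 were the called muscle genes. Titin1, another giant sarcomere protein, lay the other way without overlap, with 31.25, 32.0 and 35.3 CPM in the batch 1 tetramolters and 70.1, 51.7 and 61.1 CPM in the batch 2 trimolters. It was not called (-0.89 ± 0.42 SE, edgeR adjusted p = 0.134), though 5 alternatives called it. Actin A1 was not called (0.02). Silk gland markers summed to under 2 CPM in every library of the pair, FIBH being at 0, and 11 fat body and storage genes to 11.6 to 14.0 CPM in the batch 1 tetramolters and 11.1 to 25.2 CPM in the batch 2 trimolters. The 20 nervous system markers overlapped, at 313 to 340 CPM in the tetramolters and 316 to 444 CPM in the trimolters, and the 2 tracheal markers did not, at 36.9 to 39.9 CPM in the tetramolters and 42.8 to 44.8 CPM in the trimolters. The part of tissue makeup in the gene differences above was not tested.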

How the data were processed

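Molting type and batch in the labels defined the groups. Per the submitters' processing notes, the authors used HISAT2 2.2.1 (the protocol label names another version), Trimmomatic 0.39, DESeq2 1.38.3 and StringTie 2.2.1. No source used here gives the counting program, genome build, annotation or strand setting. The deposited count table holds raw counts for 17583 rows, and a second deposited table holds FPKM, which the authors scaled by length and depth. The FPKM column of 1 library (batch 1 trimolters, replicate 2) was empty and left unused. The 511 added loci, 0.21% to 0.264% of counts, were left out. RefSeq assembly ASM3026992v2 matched 14945 rows and gave names only. No coordinates or sequences were used.

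Counts were tested with edgeR 4.0.16 (R 4.3.3; TMM factors, filterByExpr by group, quasi-likelihood F-test, 2-sided) in 1 model of 4 groups and 12 libraries, with Benjamini-Hochberg adjustment over all 10721 genes within each of 3 contrasts. The test was also run on simulated counts, drawn with the same spread per gene in all groups. That run could not check the test under spreads that differ between groups, as they do here. Lengths were the median length implied by counts and FPKM. Exact intervals of count ratios cover counting error only, as reads carried no molecular identifiers. Replicates were distinct libraries by a chi-square test of their counts. Same-numbered libraries did not deviate together (correlations 0.002, -0.042 and -0.011), so numbers were not used as pairs.

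Named genes were those called, with a symbol, non-overlapping ranges and mean log2 CPM of 1 or more (12 with the greatest rise and 12 with the greatest fall), 22 hormone genes whatever their test, and up to 4 genes per list by smallest p. In reaching these, 26 higher and 18 lower genes without a symbol were passed over, and 1 result is not reported here. The 34 gene lists, the members and the groups compared were chosen with earlier results of these data known, and Sop2, IIM1 and IBP2, of doubtful identity, were taken off lists after values had been seen. Alternatives were RLE and upper quartile factors, no filter, DESeq2 1.42.0, limma-voom and limma 3.58.1 on log2(FPKM + 1) or log2(FPKM + 0.1), a replicate block, the added loci kept, a fit to 6 libraries, each library left out, and removal of a length trend.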

Additional observations from a re-analysis of the deposited data

How the results depend on the processing

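No gene named reversed its direction with a call under any alternative. The count of called genes moved by over 1.5 times in the fit to the 6 libraries, to 4997 (2516 higher, 2481 lower), with 98 cuticle genes (15 higher, 83 lower); this fit has fewer samples and a spread of its own, and mean SDs of log2 CPM were 0.168 in batch 1 tetramolters and 0.235 in batch 2 trimolters, against 0.408 in batch 1 trimolters. Leaving out 1 library at a time gave 1616 to 3866 called genes, 909 to 2503 for the molting type part, 3237 to 4442 for the batch part and 40 to 79 cuticle genes. With the replicate block the counts were 2881, 1489, 3907 and 59, and the numbers do not pair the samples. DESeq2 called 3370, limma-voom 2949, RLE factors 2950, upper quartile factors 2946, no filter 2660, the added loci kept 3318 and limma on log2(FPKM + 1) 3614. On log2(FPKM + 0.1), 1600 genes were higher and 1943 lower, a higher share of 45.2% against 55.2% in the edgeR test. Removal of a length trend, added after the data were seen, gave 2900. The fit to 6 libraries called 28 further genes among those named or read, and lost none. Depth limited Cyp307a1, Jhamt and Nvd, with 5, 13 and 27 counts in the tetramolters and 2, 10 and 10 in the trimolters.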

Other observations

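Of 18 chemosensory binding protein genes tested, 4 were lower and 1 was higher, a called share of 27.8% against 27.4% of all tested genes. CSP7 had 97.1, 90.0 and 85.2 CPM in the batch 1 tetramolters, against 148, 136 and 138 CPM in the batch 2 trimolters (log2 fold change -0.63, edgeR adjusted p = 0.00916), and CSP15 and CSP16 fell by 0.91 and 0.76, the call for CSP16 being lost without tetramolter library 1 or trimolter library 3. GOBP2, an odorant-binding protein, had 70 counts in the tetramolters and 9 in the trimolters, a ratio of 7.74 (exact 95% interval 3.85 to 17.6, counting error only); its call was lost without any 1 library of the pair other than tetramolter library 2.

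Among 4 clock genes, cry2, a repressor of the circadian loop, was the 1 called (25.0%, against 27.4% of all tested genes). It had 64.95, 64.3 and 63.65 CPM in the batch 1 tetramolters and 40.7, 43.9 and 36.3 CPM in the batch 2 trimolters, with a batch part of 0.58 (edgeR adjusted p = 0.000289). Of 11 autophagy and cell death genes, Atg8, which coats autophagosome membranes, was the 1 called (9.09%). It had 428, 351 and 360.4 CPM in the batch 1 tetramolters and 204, 183 and 213 CPM in the batch 2 trimolters (log2 fold change 0.93, edgeR adjusted p = 0.000872). Both glycolysis genes on the list were lower, Tpi by 1.00 and Ldh by 0.70, though the call for Ldh was lost without any tetramolter library or trimolter library 3. Lipid genes were split (30.8% of 13 tested were called), DESAT4 and Lpr being higher (0.55 and 0.41) and ACBP and FaR lower (-0.56 and -0.62). The call for Lpr was lost without tetramolter library 2 or 3 or trimolter library 2, and that for FaR without tetramolter library 1 or 3.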
